A study of Mus musculus with 9 samples.

Results

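RNA recovered by FLAG-HA purification from mouse embryonic stem cells (ESCs) that carried the WDR5 mutant F266A was compared directly with RNA recovered by the same purification from ESCs that carried an empty vector. Both lines are ESCs of the strain 129/B6 F1 hybrid, grown without feeders and with LIF. The empty vector line had received a lentivirus without tagged WDR5, so it gives the background of the purification. The F266A line had received a lentivirus with FLAG-HA WDR5 with phenylalanine changed to alanine at the position that its name gives, and a WT line with the unmutated tagged protein was part of the same series. Both tagged proteins are human WDR5, and only the F266A construct has a shortened N-terminus, so F266A and WT differ in that as well. The lines with tagged WDR5 are isolated clones chosen for tagged protein near the endogenous level. All lines keep their own mouse WDR5. Cells were crosslinked with formaldehyde, and complexes were purified through FLAG and then through HA, a sequential procedure called RIPiT-seq. Of the 9 libraries, 6 belong to this comparison: 2 immunoprecipitates (IPs) and 1 input, the total RNA of the line, for F266A and the same for the empty vector. The values were RPKM (reads scaled by transcript length and mapped reads) for 24132 gene symbols. The comparison covers the 9787 genes whose RPKM reached 1 in 2 or more libraries, on the scale log2(RPKM + 1), without subtraction of inputs.

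WDR5 is a WD-repeat protein of the MLL and SET1 complexes, which methylate lysine residues of histone H3 at active genes, and it also binds RNA. An IP samples the RNA that a line contains, so a difference between IPs of separate lines can reflect how much of an RNA the cells hold or how well it is recovered. The inputs measure the former, and each IP difference is therefore given beside the difference between the inputs. In such bulk samples fewer cells of a type and less RNA per cell cannot be told apart.

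The estimated depth of the 6 libraries was 13400000 to 50200000 mapped reads, and an RPKM of 1 on 1 kb of exons then corresponds to 13.4 to 50.2 reads. The share of reads on genes was 20.1% for the F266A input, 22.6% for that of the empty vector and 27.2% to 29.5% in the 4 IPs. All 8 listed ESC markers, among them Pou5f1, Nanog and Sox2, reached an RPKM of 1 in all 4 IPs, and their summed RPKM was 491 and 575 in the F266A IPs against 669 and 608 in the empty vector IPs. The summed RPKM of fibroblast, trophoblast, neural and mesoderm markers was 4.01 or less in each list and each of these libraries, and Col3a1, Lum, Dcn, Prl3d1 and Neurog2 were at 0 in all 4 IPs. The IPs of the empty vector lay closest together, with 1.28% of genes 1.5-fold or more apart, against 5.39% between the F266A IPs.

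F266A IP replicate 1 stood apart from replicate 2 and from the F266A input in 3 respects. The summed RPKM of the Y-linked genes Ddx3y, Uty and Eif2s3y was 0.038 in replicate 1, 7.21 in replicate 2 and 4.43 in the F266A input, against 7.41 to 9.48 in the empty vector libraries and 0.18 to 0.32 in the WT libraries. The summed RPKM of 10 primitive endoderm markers was 5.85 in replicate 1, 26.4 in replicate 2 and 19.9 in the input, against 3.85 to 4.58 in the empty vector libraries. Genes on chromosome 8 differed as well, as described further on. Results are therefore also given without replicate 1.

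A total of 445 genes, 4.55% of the 9787 tested, passed an adjusted p of 0.05 (limma with Benjamini-Hochberg adjustment) between the F266A IPs and the empty vector IPs. Of these, 114 (1.16%) were higher and 331 (3.38%) were lower in F266A, and 25.6% of the calls were therefore higher. The size of the called differences ran from 0.49 to 1.88 among the higher genes and from 0.48 to 2.48 among the lower genes on the log2 scale. Without F266A IP replicate 1 the fit called 480 genes, 211 higher and 269 lower, and 243 of them were called in the same direction with it. Without replicate 2 it called 275 genes, of which 207 were shared. The calls rest on both empty vector IPs: without empty vector IP replicate 1 limma called 0 genes, with 1067 at an unadjusted p under 0.05, and without empty vector IP replicate 2 it called 4, with 1190. In both of these fits 0 ribosomal protein, glycolysis, redox, naive-state and BMP genes of the counts below were called, and 0 of the chromosome 6 stretch. When all libraries were brought to an equal share of reads on genes, 279 genes were called and 40.1% of them were higher.

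Almost every called gene differed in the same direction between the inputs. All 331 lower genes were lower in the F266A input than in the empty vector input, as were 67.4% of all tested genes. Of the 114 higher genes 113 were higher in the F266A input, against 32.6% of all tested genes, with the microRNA gene Mir18 as the exception. The input difference was at least 0.5 of the IP difference for 318 of the lower genes (96.1%) and for 94 of the higher genes (82.5%). Among genes not called whose IP difference was at least as large as the smallest called one, the inputs differed in the same direction for 206 of 232 on the higher side (88.8%) and for 316 of 327 on the lower side (96.6%). Among all genes not called, the input difference had the sign of the IP difference for 53.6% of those with an IP difference above 0 and for 87.9% of those below 0, since the median input difference over all tested genes was -0.12, against -0.0050 for the IPs. After median centring of the libraries the shares were 102 of 102 higher calls and 319 of 321 lower calls. Across the 9787 genes, which are not independent replicates and which share the libraries' depth and gene lengths, the IP and input differences had a Pearson's r of 0.73 and a Spearman's rho of 0.71. Taken alone against the mean of the empty vector IPs, F266A IP replicate 1 had a Pearson's r of 0.52 and replicate 2 of 0.78. The lone F266A input thus describes replicate 2 more closely than replicate 1. The inputs have no replicate, so their difference alone was not tested. By size, 217 genes (2.22%) were 1.5-fold or more higher and 718 (7.34%) lower in the F266A input. This imbalance depends on the scaling: the counts were 428 and 465 with quantile normalization and 415 and 520 with libraries brought to an equal share of reads on genes.

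**Figure D1:**
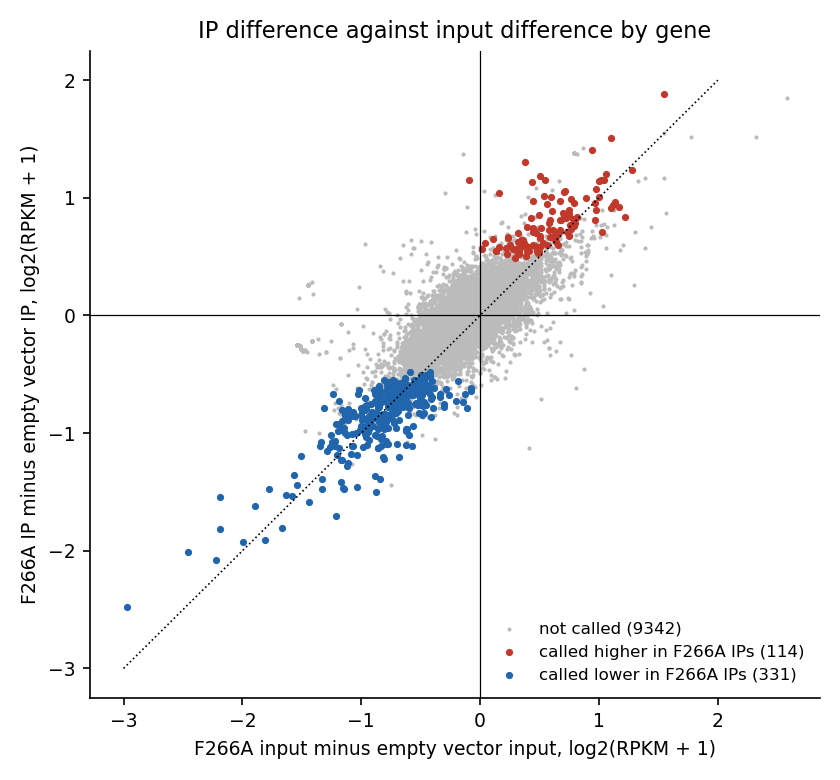
Difference between the F266A and empty vector IPs (y axis) against the difference between their inputs (x axis), both on log2(RPKM + 1), for 9787 genes; each point is a gene, and the dotted line marks equal differences. The 331 genes called lower all lie left of 0 on the x axis, and 113 of the 114 genes called higher lie right of it.

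Wdr5 itself, at chr2:27370677-27392055 of mm9, was listed at an RPKM of 8.79 and 8.18 in the F266A IPs, against 9.34 and 10.5 in the empty vector IPs, and 5.85 against 8.05 in the respective inputs. The F266A IPs lay below both empty vector IPs, and the difference was -0.20 (standard error 0.12), which failed the test (adjusted p = 0.386). The row is that of the mouse gene and gives no check of the human transgene.

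Peg10, an imprinted retrotransposon-derived gene of the placenta at chr6:4697306-4710514, had the greatest rise. Its RPKM was 30.2 and 24.3 in the F266A IPs against 6.35 and 6.90 in the empty vector IPs, and 19.3 against 5.95 in the inputs. Both F266A IPs lay far above both empty vector IPs, a difference of 1.88 with a standard error of 0.21 (adjusted p = 0.0105). Its neighbour Ppp1r9a, which encodes an actin-binding protein, rose by 0.72, with an input difference of 0.61.

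Myc, the growth-promoting transcription factor at chr15:61816946-61821929, was listed at 9.21 and 7.60 in the F266A IPs, against 3.20 and 3.24 in the empty vector IPs, and 5.19 against 2.01 in the inputs. The groups did not overlap, and the difference was 1.15 with a standard error of 0.22 (adjusted p = 0.0368), beside 1.04 for the inputs. This call rests on both F266A IPs and was not kept when either was left out. Myc was the only called gene of 9 tested members of the Myc family and Max (11.1%, against 1.16% higher over all genes). The other protein-coding genes with large rises were Hrnr, a cornified-envelope protein (1.51, input difference 1.1), Dok2, a docking protein for receptor tyrosine kinases (1.40, input 0.94), Steap2, a metalloreductase (1.2, input 1.06), Mad2l1, a spindle checkpoint protein (1.15, input 1.01), and the ubiquitin ligase Kcmf1 (1.15, input 1.0). Each of these rose in the inputs by at least 0.5 of the IP difference. Dok2 passed the filter only through the F266A libraries, so nothing is read from its direction.

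Klhl13, a substrate adaptor of a ubiquitin ligase at chrX:22796397-22942208, had the greatest fall. Its RPKM was 7.54 and 2.31 in the F266A IPs against 29.1 and 28.2 in the empty vector IPs, and 1.59 against 19.2 in the inputs. Both F266A IPs lay below the empty vector IPs although they differed widely between themselves, and the difference was -2.48 with a standard error of 0.36 (adjusted p = 0.0153). The input difference, -2.97, was larger still.

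Fxyd6, a regulator of the sodium pump, had an RPKM of 3.32 and 2.17 in the F266A IPs against 15.2 and 14.2 in the empty vector IPs. It fell by 2.08, with an input difference of -2.22. Trh, the precursor of thyrotropin-releasing hormone and abundant in ESCs, had 12.5 and 6.58 against 41.7 and 37.9 and fell by 2.01, with an input difference of -2.46. Neither gene overlapped between the groups. Lower by a similar amount were the brain-type creatine kinase Ckb (-1.91, input -1.81), the lactate dehydrogenase subunit Ldhb (-1.81, input -2.19), the epoxide hydrolase Ephx2 (-1.80, input -1.67), 1700097N02Rik (-1.70, input -1.21), the lysosomal glycoprotein Cd68 (-1.62, input -1.89), the septin Sept1 (-1.58, input -1.44) and the guanine nucleotide exchange factor Mcf2 (-1.54, input -1.58). In the WT line Klhl13 was at 27.4 and 29.5 in the IPs, next to the empty vector, while Sept1 was at 5.22 and 6.87, next to F266A. For each other gene of this paragraph the mean of the WT IPs lay below that of the empty vector IPs, from -0.24 for Trh to -0.79 for Ldhb. The WT values are side by side only, since the same empty vector samples serve both lines.

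**Figure D2:**
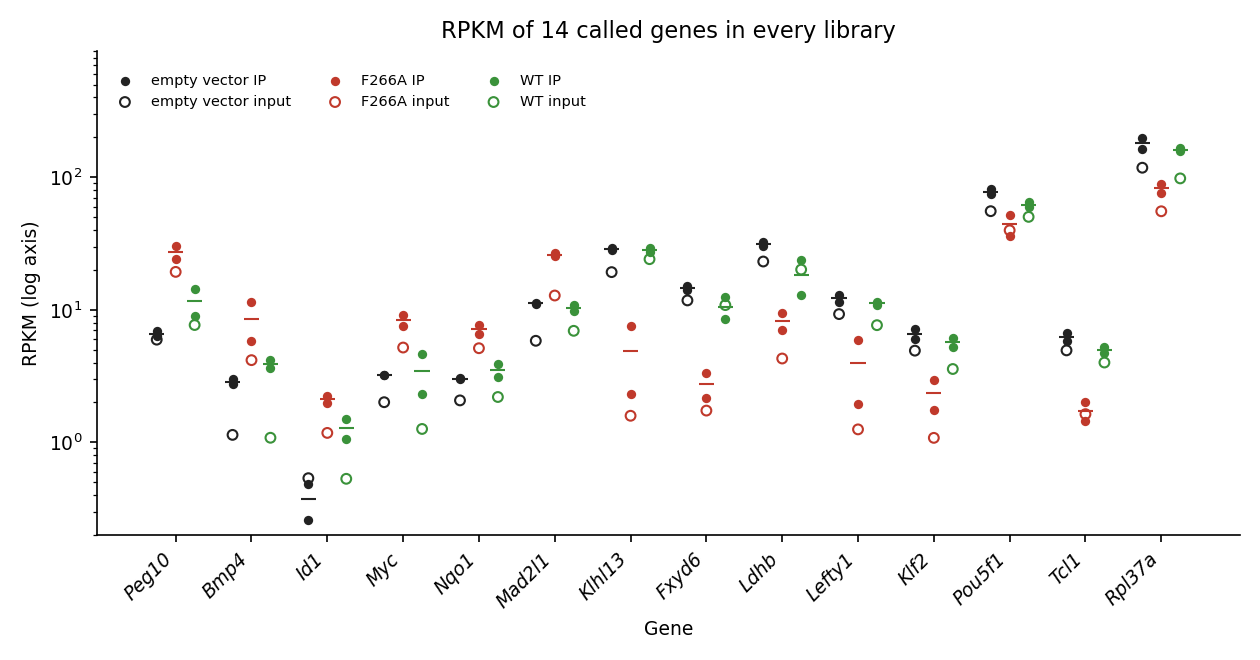
RPKM on a log axis for 14 called genes (x axis) in every library of the 3 lines; filled points are the 2 IPs of a line, short lines their mean and open circles the input. The F266A input lies on the same side of the empty vector input as the F266A IPs do of the empty vector IPs in all 14, as for Peg10 (19.3 against 5.95) and Klhl13 (1.59 against 19.2).

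The mRNAs of cytosolic ribosomal proteins, the protein components of the ribosome, made up the largest listed group of lower genes. Of 84 tested, 51 fell and 0 rose, against 3.38% lower over all genes, and 83 had an IP difference below 0. The median RPKM of the 84 was 92.0 and 108 in the F266A IPs against 187 and 159 in the empty vector IPs, and 73.1 against 117 in the inputs. Both F266A IPs lay below both empty vector IPs for 80 of the 84, a pattern that 28.6% of all tested genes share. The median IP difference was -0.72, beside -0.0050 over all genes, and the median input difference was -0.71, beside -0.12.

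Rpl37a, a protein of the large subunit, was listed at 76.4 and 89.4 in the F266A IPs against 196 and 164 in the empty vector IPs, a difference of -1.11 with a standard error of 0.15 (adjusted p = 0.013), and at 55.4 against 118 in the inputs. Rpl14 (-1.01, input -0.97) and Rpl30 (-0.94, input -0.91), also of the large subunit, differed by nearly the same amount in IP and input. The paralogue Rpl39l, which is weakly expressed, had an RPKM of 0.0606 and 0.455 in the F266A IPs against 1.90 and 2.55 and fell by 1.37. For all 51 called members the input difference was at least 0.5 of the IP difference. In the WT IPs the median difference of the 84 genes from the empty vector was -0.13.

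These calls depended on the library and the scaling more than the medians did. The count of lower ribosomal protein genes was 8 without F266A IP replicate 1, 30 without replicate 2 and 0 without either empty vector IP, while the median difference stayed between -0.83 and -0.61. With quantile normalization 9 were called at a median of -0.31, and with libraries brought to an equal share of reads on genes 20 at a median of -0.64. Ribosomal protein genes have many processed copies in the genome, so reads may be split with rows such as Rpl34-ps1 (-0.86, input -0.83), and the level of a single gene is uncertain. The mitochondrial ribosomal protein genes did not share the shift: of 76 tested, 3 rose and 1 fell, with a median of -0.021. These shares were 3.95% and 1.32%, against 1.16% and 3.38% over all genes, and 2 of the 3 lie in the chromosome 6 stretch described below. Of 57 translation factor genes the subunits Eif3k, Eif3f and Eif3l of the initiation factor eIF3 fell (-0.68, -0.59 and -0.55) and 0 rose, a share of 5.26% that is near the 3.38% over all genes.

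Pluripotency genes had negative median differences, and few of them passed the test. Of 18 core pluripotency transcription factors tested, 2 fell (11.1%, against 3.38% of all tested genes), 0 rose and 15 had an IP difference below 0 (83.3%, against 50.9%), with a median of -0.29 and an input median of -0.46. Klf2, a Kruppel-like factor of the naive state at chr8:74842932-74845555, was listed at 2.96 and 1.75 in the F266A IPs against 7.17 and 5.99 in the empty vector IPs, a fall of 1.2 with an input difference of -1.51. Pou5f1, which encodes Oct4 and lies at chr17:35642982-35647721, was at 36.3 and 52.0 against 81.1 and 74.9, and at 39.8 against 55.5 in the inputs. Its IPs did not overlap and it fell by 0.83 with a standard error of 0.18 (adjusted p = 0.0434), beside an input difference of -0.47. F266A IP replicate 1 lay furthest from the empty vector IPs, and the call of Pou5f1 was not kept without it.

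Of 25 naive-state and ESC marker genes, 4 fell (16%, against 3.38% of all tested genes) and 0 rose, with a median of -0.41 and an input median of -0.49. The Akt coactivator Tcl1 had 1.45 and 2.0 in the F266A IPs against 6.66 and 5.81 and fell by 1.41. The alkaline phosphatase Alpl (-0.95, input -0.97), the lysosomal mannosidase Manba (-0.88, input -0.91) and the Myb-family factor Mybl2 (-0.61, input -0.74) also fell. Lefty1 and Lefty2, secreted inhibitors of Nodal that neighbour each other on chromosome 1, were lower by 1.54 and 1.47, with input differences of -2.19 and -1.78. Lefty1 was at 5.92 and 1.96 in the F266A IPs against 11.5 and 12.9 in the empty vector IPs, so the F266A IPs differed widely between themselves and still lay below both. Lefty1 and Lefty2 were the only called genes of 15 tested in the Lefty and Nodal pathway (13.3%, against 3.38% lower over all genes). DNA methylation enzymes, MLL and SET1 subunits and Polycomb subunits had 0 calls among 11, 19 and 23 tested genes, with medians of -0.082, 0.042 and 0.011. With 4.55% of all tested genes called, 0 calls in lists of this size say little.

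Several genes of the BMP pathway were higher. Of 8 tested BMP and Id genes, 4 rose and 0 fell, against 1.16% higher over all genes, with a median of 0.48 and an input median of 0.50. Id3, which is not among the 4, passed the filter only through the F266A libraries and is part of these medians. The ligand Bmp4, at chr14:47003195-47010344, was listed at 5.77 and 11.4 in the F266A IPs, against 2.74 and 3.02 in the empty vector IPs, and 4.17 against 1.14 in the inputs. It rose by 1.24 with a standard error of 0.24 (adjusted p = 0.0368), and the input difference was 1.27. The receptor Bmpr2 rose by 0.58 (input 0.51), and the ERK phosphatase Dusp9, which BMP signalling induces in ESCs, by 0.85 (input 0.75).

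Id1, a BMP target that inhibits helix-loop-helix factors, had 1.99 and 2.23 in the F266A IPs against 0.261 and 0.487 in the empty vector IPs, with 1.18 against 0.537 in the inputs. It rose by 1.18, beyond its input difference of 0.50. In the FGF-ERK list 3 of 19 genes rose (15.8%, against 1.16% of all tested genes) and 1 fell (5.26%, against 3.38%): the pleckstrin-homology protein Phlda1 (0.86), the ETS factor Etv4 (0.77) and the feedback inhibitor Spry2 (0.62) were higher, and the immediate early factor Egr1 (-0.59) was lower. Their input differences were 0.49, 0.76, 0.32 and -0.57, in the same order. Phlda1 passed the filter only through the F266A libraries, as did the list members Fgfr2 and Dusp4. The 3 higher FGF-ERK calls became 1 with quantile normalization and 0 with the 4 IPs alone or with the 6 libraries of both lines. The median of the FGF-ERK list was 0.26, and it was 0.14 without F266A IP replicate 1 and 0.22 without replicate 2. Without F266A IP replicate 1, 3 BMP and Id genes were called higher, and without replicate 2 it was 2.

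Primitive endoderm genes were listed at higher values in the F266A input and in F266A IP replicate 2 than in replicate 1. Of 27 listed regulators and receptors of this extraembryonic lineage 8 passed the filter, 6 of them only through the F266A libraries, so nothing is read from their direction. Of the 8, 0 rose with both IPs and 1, the apolipoprotein Apoe, fell by 0.96. Gata4, Dab2, Cubn and Srgn were among the 6 that passed only through the F266A libraries. The factor Gata4 was at 0.695 and 2.69 in the F266A IPs, against 0.164 and 0.106 in the empty vector IPs, and 1.90 against 0.157 in the inputs. The adaptor Dab2 was at 0.916 and 5.43 against 0.261 and 0.191. Both F266A IPs lay above both empty vector IPs for 7 of the 10 defining markers, a pattern that 25.9% of all tested genes share. Of the 10, Gata6, Sox17, Sox7, Foxa2 and Pdgfra stayed below an RPKM of 1 in every library and were not tested. The 7 of 10 and the 25.9% are therefore not directly comparable. Of 19 basement membrane genes, the perlecan gene Hspg2 rose by 0.55 and the nidogen gene Nid1 fell by 0.54. Each is 5.26% of the list, against 1.16% higher and 3.38% lower over all genes. The median of the 19 was 0.28 without replicate 1 and -0.20 without replicate 2. Of these genes Col4a1 and Col4a2 passed the filter only through the F266A libraries. The part of these cells in the results was not tested.

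**Figure D3:**
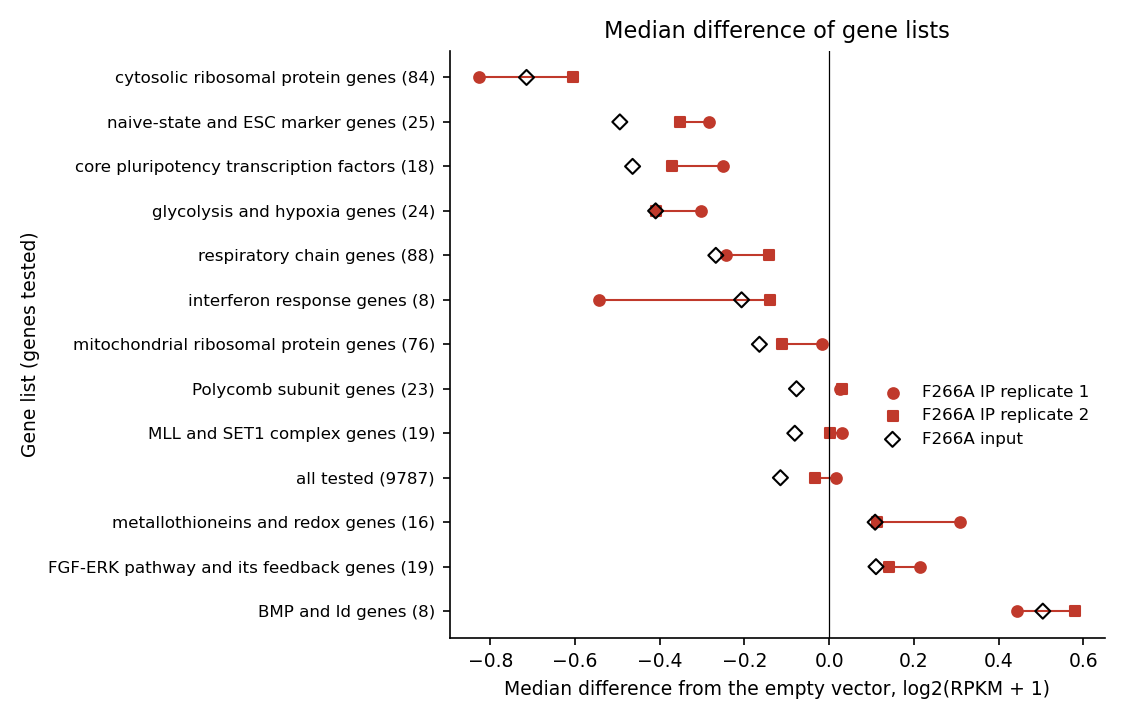
Median difference from the empty vector on log2(RPKM + 1) (x axis) for 12 gene lists and all tested genes (y axis, number of genes in brackets); circles are F266A IP replicate 1, squares replicate 2, each against the mean of the empty vector IPs, and open diamonds the F266A input against the empty vector input. The cytosolic ribosomal protein genes lie lowest in all 3 libraries (-0.83, -0.61 and -0.71), and the BMP and Id genes lie highest (0.44, 0.58 and 0.50).

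Several genes of glycolysis and of the hypoxia response were lower. Of 24 tested, 7 fell (29.2%, against 3.38% of all tested genes) and 1 rose, with a median of -0.29 and an input median of -0.41. The falls were in the mitophagy receptor Bnip3 (-0.92), the glycolytic enzymes Pgk1 (-0.79), Pfkl (-0.70), Tpi1 (-0.64) and Aldoa (-0.63), Ndrg1 (-0.60) and the lactate transporter Slc16a3 (-0.59). Pgk1 was listed at 29.8 and 26.6 in the F266A IPs against 53.7 and 45.5, and at 15.6 against 32.1 in the inputs, with no overlap. The WT IPs were lower than the empty vector IPs as well. Their median difference was -0.20 for the 24 genes and their difference was -0.71 for Pgk1, with the same empty vector samples serving both lines. Without F266A IP replicate 1 the fit called 4 lower members and without replicate 2 it called 2. The exception, hexokinase Hk2, rose by 0.95 and lies in the chromosome 6 stretch described below. Of 88 respiratory chain genes 5 fell (5.68%, near the 3.38% of all tested genes) and 0 rose. They were Ndufa4l2 (-1.50), Cox5a (-0.77), Ndufb9 (-0.67), Ndufv3 (-0.64) and Atp5g2 (-0.58).

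Several redox genes moved the other way. Of 16 metallothionein and redox genes 5 rose (31.2%, against 1.16% of all tested genes) and 0 fell, with a median of 0.18. The quinone reductase Nqo1 was at 6.53 and 7.68 in the F266A IPs against 3.05 and 3.01 in the empty vector IPs, and at 5.13 against 2.07 in the inputs. It rose by 1.0 with a standard error of 0.13 (adjusted p = 0.0123) and by 1.0 in the input. Sulfiredoxin, Srxn1 (0.95, input 0.56), the glutamate-cysteine ligase subunit Gclc (0.66, input 0.23), thioredoxin reductase Txnrd1 (0.53, input 0.33) and heme oxygenase Hmox1 (0.52, input 0.32) also rose. Of the 16 genes, 10 had an IP difference above 0 and 6 below. Of the 5 higher genes, 2, Nqo1 and Hmox1, lie on chromosome 8. Without F266A IP replicate 1 the count was 2, and these were Nqo1 and Hmox1. It was 0 when the genes of chromosomes 8 and Y and of the chromosome 6 stretch were also taken out, and 3 without replicate 2 alone.

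The glutathione S-transferases, which also act in detoxification, were picked after their values were seen and are given as a description. Of 12 tested, 6 fell (Gstm2, Gstm3, Gstt1, Gstt2, Gstp1 and Gstp2) and 0 rose, beside 3.38% lower over all genes, with a median of -0.62 and an input median of -0.65. Gstp1 was at 5.56 and 7.86 in the F266A IPs against 14.1 and 13.7. The superoxide dismutases Sod1 (-0.69, input -0.34) and Sod2 (-0.66, input -0.69) were lower too.

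In the interferon response list 3 of 8 tested genes fell (37.5%, against 3.38% of all tested genes) and 0 rose, with a median of -0.21. Of the 3 genes, Oas1a passed the filter only through the empty vector libraries. The median of the list for the WT IPs was -0.16. The membrane protein Ifitm1 had 12 and 9.0 in the F266A IPs against 45.8 and 39.3, and 5.62 against 25.4 in the inputs, with no overlap. It fell by 1.93 (adjusted p = 0.00608), Ifitm2 by 0.66 and the oligoadenylate synthetase Oas1a by 1.1. The architectural noncoding RNA Neat1, the scaffold of paraspeckles, was at 5.90 and 5.54 against 13.1 and 13.3 and fell by 1.08, with an input difference of -1.34. Neat1 was low in the WT line as well, at 6.72 and 7.66 in the IPs (-0.80 from the same empty vector IPs). The WT input was at 6.31, against 11.4 in the empty vector input, so the fall is not particular to F266A. It was the only called gene of 9 nuclear long noncoding RNAs (11.1%, against 3.38% lower over all genes). The homeodomain genes Duxbl2 and Duxbl3 fell by 0.85 with equal values in all libraries, so they count once. All 4 tested Phf11 genes, paralogues whose reads may be shared, were called lower at a median of -1.06, beside 3.38% lower over all genes. Duxbl and Phf11 genes were picked after their values were seen and are given as a description. Replication-dependent histone, spliceosome, proteasome, heat shock and cholesterol synthesis genes had 0 calls among 71, 127, 36, 20 and 22 tested genes, beside 4.55% called over all genes.

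MicroRNA genes held 2 higher and 3 lower calls among 220 rows tested, of which many are near-identical copies. These shares, 0.909% and 1.36%, were not above the 1.16% and 3.38% of all tested genes, so the calls are given one by one and say nothing of microRNA genes as a class. Their mature sequences, from RefSeq (GRCm38.p6), are shown because Mir18 and Mir18b share a seed and moved in opposite directions, and because the Mir682 row cannot be told apart from a ribosomal protein mRNA. Bases 2 to 8, the seed that pairs with target mRNAs, are in capitals.
miR-18a-5p: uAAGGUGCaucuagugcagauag
miR-18b-5p: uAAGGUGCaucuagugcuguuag
miR-294-3p: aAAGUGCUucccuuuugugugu
miR-28b: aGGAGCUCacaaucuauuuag
miR-682: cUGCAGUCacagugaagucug

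Mir18, of the growth-promoting cluster on chromosome 14, was listed at 3.89 and 2.02 in the F266A IPs against 1.0 and 0.488 in the empty vector IPs. It rose by 1.16 with a standard error of 0.23 (adjusted p = 0.0391), while its inputs, 1.25 and 1.40, differed by -0.09. Mir18b, on the X chromosome, was at 0.404 and 0.489 in the F266A IPs against 1.95 and 2.29 and fell by 1.11, with an input difference of -0.83. The IPs of both genes did not overlap between the lines. Each of these rows rests on few reads, at most an estimated 7.65 for Mir18 and 4.06 for Mir18b in any of the 4 IPs.

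Mir28b rose by 1.30 (input difference 0.38), and Mir294, of the ESC-specific cluster on chromosome 7, fell by 1.12 (input difference -1.26) on at most an estimated 7.43 reads. The reads of Mir28b were not estimated, and its RPKM was only 2.31 and 2.73 in the F266A IPs on a hairpin of 80 bases. The RNA libraries were not selected for size, so such rows may hold reads of precursors or host transcripts rather than mature microRNAs. Mir682 had an RPKM of 245 and 283 in the F266A IPs against 672 and 570, a fall of 1.23. Its 96-base hairpin differs from the coding transcript of Rpl37a at 1 base, the mature sequence shown above occurs there without a mismatch, and Rpl37a fell by 1.11. Among small nucleolar RNAs of the C/D box type, Snord1a (1.15) and Snord92 (0.74) rose and Snord22 (-0.67) fell, of 46 tested. These shares were 4.35% and 2.17%, against 1.16% and 3.38% over all genes. Snord1a was listed at 0 and 0.205 in the empty vector IPs and rests on at most an estimated 3.02 reads. It passed the filter only through the F266A libraries.

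By chromosome, 32 of the 114 higher genes lay on chromosome 6, 8.99% of its 356 tested genes, whereas the other autosomes and the X ranged from 0.172% to 2.01%. Of these, 26 came from a stretch between Smarcad1 and Tex261 (chr6:64992661-83725806), whose ends were set after the values were seen and which is given without a test. The stretch holds 42 tested genes, and 40 of them had an IP difference above 0. Its called genes Gng12, Htra2, Dctn1 and Tex261 passed the filter only through the F266A libraries. So did E230016M11Rik, Reep1, 0610030E20Rik, Vamp8, Ggcx, Tet3 and Dguok, against 342 of all 9787 tested genes. Nothing is read from the direction of these genes, which the counts and medians of the stretch include. The median difference of the 42 genes from the empty vector was 0.79 in F266A IP replicate 1, 0.60 in replicate 2 and 0.52 in the F266A input, beside 0.0025 for the WT IPs and -0.020 for the WT input. The 5 tested genes before it ranged from -0.50 to 0.0078 and the 5 after it from -0.33 to -0.021. The ends were placed by these same values, so how sharply the shift begins and ends is not read from them.

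Genes of unlike function rose side by side there. Mad2l1 was at 26.6 and 25.3 in the F266A IPs against 11.3 and 11.1 in the empty vector IPs, and Kcmf1 at 18.0 and 16.5 against 7.71 and 6.78. Hk2, at 14.5 and 13.2 against 6.95 and 6.38, and the mitochondrial folate enzyme Mthfd2, at 8.29 and 7.97 against 4.12 and 3.33, lie in the same stretch, as do the stress-induced gene Gadd45a (1.02), the polymerase subunit Pole4 (0.97), the splicing factor Usp39 (0.94) and the mitochondrial ribosomal proteins Mrpl53 (0.81) and Mrpl19 (0.54). The groups did not overlap for any of these 4 genes with values. The exceptions were Rpl34-ps1, a ribosomal protein pseudogene that fell by 0.86, the histone demethylase Kdm3a (-0.01) and the Wnt effector Tcf7l1 (0.14). Without F266A IP replicate 1 the stretch held 17 higher calls and without replicate 2 it held 19. DNA copy number was not measured.

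**Figure D4:**
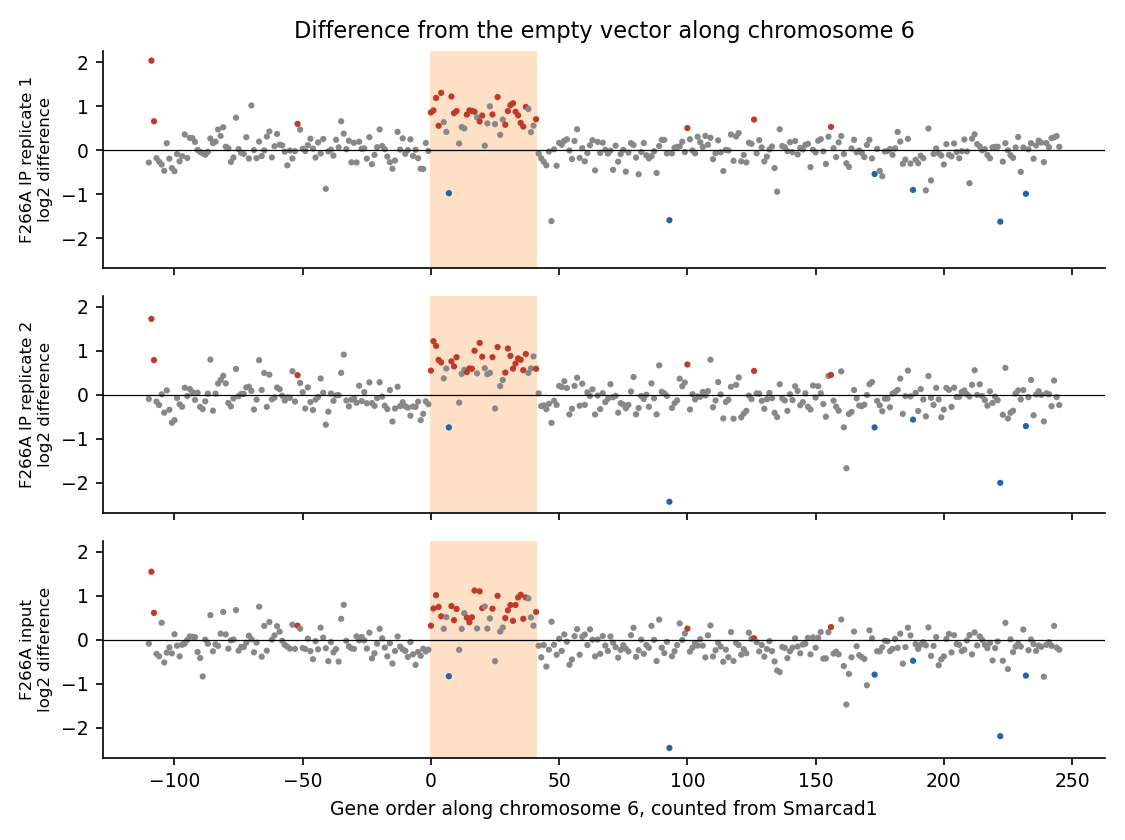
Difference from the empty vector on log2(RPKM + 1) (y axes) for 356 tested genes in their order along chromosome 6 (x axis, counted from Smarcad1), in F266A IP replicate 1, replicate 2 and the F266A input; red points are genes called higher, blue points genes called lower and grey points genes not called. The shaded 42 genes from Smarcad1 to Tex261 lie mostly above 0 in all 3 panels, with medians of 0.79, 0.60 and 0.52.

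Chromosome 8 had a raised median difference, and in only some of the F266A libraries. The median difference of its 497 tested genes was 0.26 in the F266A input and 0.36 in F266A IP replicate 2, and 0.041 in replicate 1. On the other autosomes and the X the medians ranged from -0.22 to -0.095 in the input, from -0.15 to -0.018 in replicate 2 and from -0.041 to 0.052 in replicate 1. A total of 447 of the 497 genes were above the empty vector in replicate 2, against 278 in replicate 1. With both IPs 10 genes of chromosome 8 were called higher, with replicate 1 left out 70, and with replicate 2 left out 1.

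The X chromosome had the highest share of lower calls, 20 of 286 genes (6.99%), at a median of -0.10 in the IPs and -0.22 in the inputs. The Y-linked gene Eif2s3y, a translation initiation factor subunit, was at 0 and 3.73 in the F266A IPs, against 4.92 and 4.90 in the empty vector IPs, and 1.88 against 3.83 in the inputs. Ddx3y, an RNA helicase, was at 0.0105 and 1.61 against 1.95 and 1.87, and the demethylase Uty at 0.0278 and 1.86 against 2.61 and 2.48. None of the 3 passed the test. The stretch of chromosome 6 was raised in replicate 1 as in the other F266A libraries, while the WT libraries, also near 0 for these Y-linked genes, showed no such rise. With the genes of chromosomes 8 and Y and of the stretch taken out of the fit, 428 genes were called, 81 of them higher and 347 lower, and with F266A IP replicate 1 also left out 303, 86 higher and 217 lower.

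**Figure D5:**
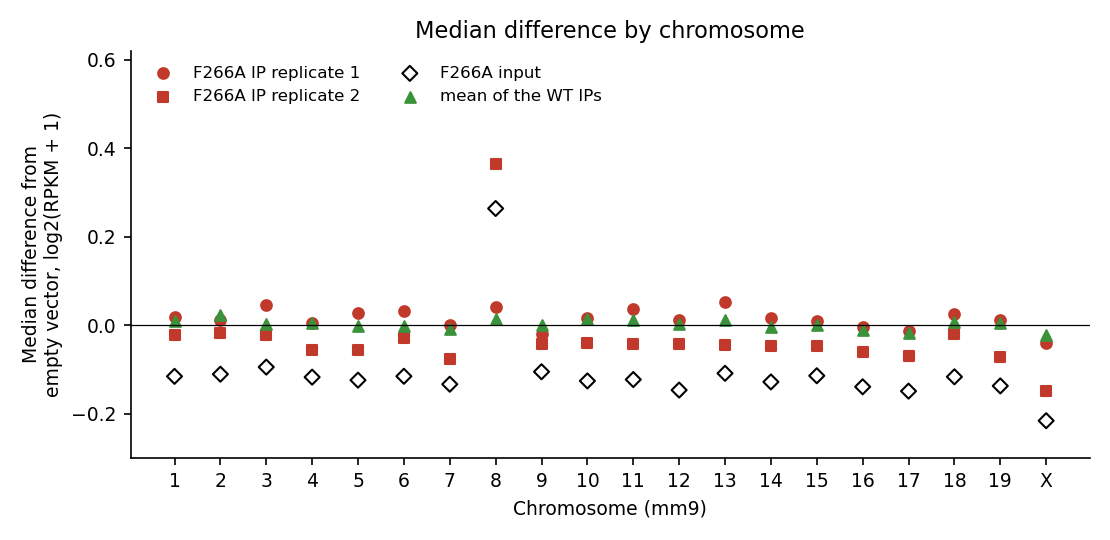
Median difference from the empty vector on log2(RPKM + 1) (y axis) by chromosome (x axis) for F266A IP replicate 1 (circles), replicate 2 (squares), the F266A input against the empty vector input (open diamonds) and the mean of the WT IPs (triangles). Chromosome 8 stands at 0.36 in replicate 2 and 0.26 in the input, but at 0.041 in replicate 1.

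The IP difference was also set against the input difference within the same fit. Each input is a lone library that is assumed here to vary like the IPs, so the p-values of this input-corrected difference rest on that assumption. With it limma called 0 of 9787 genes, with 243 at an unadjusted p under 0.05, and the median standard error was 0.24, against 0.14 for the IP difference alone. Of these 243, 129 were rows of microRNA genes, 117 of them copies of Mir669, Mir466, Mir467 or Mir297, and 115 were listed at 0 in the F266A input. Of the 445 genes called between the IPs, 13 were among the 243.

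The genes whose IP difference went furthest beyond the input difference are given by that excess and passed no test of it. On the higher side they were Mir18 (1.25), Mir28b (0.92), DQ267100 (0.88), the differentiation inhibitor Eid3 (0.69) and Id1 (0.68). The WT IPs also lay above the empty vector IPs for Mir18 (0.94), Mir28b (0.88) and Id1 (0.73). For Eid3 (0.25) and DQ267100 (0.07) the WT difference was smaller. Eid3 was listed at 2.91 and 3.86 in the F266A IPs against 1.21 and 0.791 in the empty vector IPs, while the inputs were at 3.98 and 2.68. On the lower side they were the galectin Lgals3 (-0.68), Ndufa4l2 (-0.63), the chloride channel accessory protein Clca4 (-0.59), the mitochondrial ribosome assembly factor Malsu1 (-0.57) and the acetyl-CoA synthetase Acss1 (-0.54). Malsu1 was at 6.29 and 6.10 in the F266A IPs against 9.94 and 10.6 in the empty vector IPs, with nearly equal inputs of 6.36 and 6.75. The IPs of Eid3 and of Malsu1 did not overlap between the lines. Their adjusted p for the input-corrected difference, like that of the other 8 genes, was 0.715 or higher.

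By class, mRNAs made up 9022 of the tested genes, and 1.16% were called higher and 3.38% lower. Among 199 long noncoding RNAs 2 were higher and 8 lower (4.02%), and among 93 pseudogenes 1 was higher and 8 lower (8.60%). Lower calls were more frequent among short mRNAs: 6.76% of the quartile with exons of up to 2345 bp, 3.05% and 2.25% of the middle quartiles, and 1.41% of the longest quartile. Without the cytosolic ribosomal protein genes the share in the shortest quartile was 5.16% and in the longest 1.37%. The share of higher calls lay between 0.985% and 1.36% in all 4 quartiles.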

How the data were processed

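RIPiT-seq libraries of the lines were grouped from their GEO labels, which number the IPs 1 and 2 and name no separate cultures, so p-values measure the spread between these samples. The authors aligned reads with TopHat 1.1.3 to the mm9 build, and the deposited values are RPKM per RefSeq symbol, already divided by transcript length and mapped reads; no count test was run on these values. How reads with several positions were counted is not given in the sources used here.

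The test was limma 3.58.1 (R 4.3.3) on log2(RPKM + 1), which understates changes of weakly expressed genes, in 1 fit over all 9 libraries with a coefficient per line and fraction, a mean-variance trend, Benjamini-Hochberg adjustment over 9787 genes and a threshold of 0.05. The spread comes from the 3 pairs of IPs. The input difference has no test, and the input-corrected difference assumes that a lone input varies like an IP. Tested on simulated data, the fit recovered 99 of 100 genes changed by 1 and 54 of 100 changed by 0.5 (log2), and called 5 others. The simulated noise was independent, depended only on the mean level of a gene and was equally large in all libraries. It held no library that stands apart as F266A IP replicate 1 does, so these counts do not give the error rates of the real comparison.

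Depth was estimated from the lowest step of RPKM times exon length, and covers counting error only. Gene positions were taken from GENCODE M1 (mm9) for 21046 symbols with a single gene of that name. RNA classes and microRNA sequences are from RefSeq (GRCm38.p6), in which 21496 symbols matched directly and 1675 by an older name.

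Genes were named by rule: Wdr5, the 12 greatest differences in each direction, the 5 per direction furthest beyond the input, and up to 4 called genes of each of 46 lists. The comparison, the lists and the rule were chosen with earlier results of these data known. Genes of the chromosome 6 stretch, further list members, Mir18b, Ppp1r9a, superoxide dismutases, glutathione S-transferases, Duxbl and Phf11 genes were picked after their values were seen. Alternatives covered pseudocounts, filters, scaling, the replicate block, the libraries in the fit and leaving out each IP. UCSC genes and lincRNA predictions were not analysed here.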

Additional observations from a re-analysis of the deposited data

How the results depend on the processing

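The IP difference of each of the 90 named genes had the same direction in the alternatives in which it was tested, and the calls varied; 48 of the 90 were tested at a mean RPKM of at least 5, 89 with the filter on the 4 IPs and 81 without the genes of chromosomes 8 and Y and of the stretch. The count of 445 called genes was 2 without a filter on low values, 295 at a mean RPKM of at least 5, 242 with quantile normalization, 279 with libraries brought to an equal share of reads on genes, 229 with the 4 IPs alone and 235 with the 6 libraries of both lines; the cause was not tested, except that fewer genes or samples entered some fits. In that order the higher genes were 0, 51, 73, 112, 51 and 52, and the lower genes 2, 244, 169, 167, 178 and 183. Leaving out 1 IP gave 0 to 480 calls, 0 to 211 higher and 0 to 269 lower, with 0 and 4 calls without empty vector IP replicates 1 and 2. With the chromosome 6 stretch and chromosomes 8 and Y taken out and without F266A IP replicate 1, an alternative chosen after seeing the data, 217 were lower.

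Same-numbered F266A and empty vector IPs did not deviate together (r = 0.012 across genes), while r was 0.26 for F266A and WT and 0.11 for WT and the empty vector, and the numbers were not treated as pairs; the fit with a replicate block called 607 genes, 174 higher and 433 lower, 0 in the input-corrected difference and 59 of the lower ribosomal protein genes.

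The input-corrected count of 0 became 88 at a pseudocount of 0.1, 107 at 0.01 and 22 without a filter; all 88 were microRNA rows listed at 0 in the F266A input, as were 103 of the 107, and 0 of the 88 were called between the IPs. It was 0 to 0 on leaving out 1 IP. Genes 1.5-fold higher in the F266A input numbered 428 with quantile normalization, 330 with median centring and 415 with the equal share of reads, and 465 were lower with quantile normalization. The percentage of called genes whose inputs differed in the direction of the IPs was 50 without a filter, 98.4 with the block, and 100 with quantile normalization, with the equal share of reads and with 6 libraries.

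Lower ribosomal protein genes numbered 9 with quantile normalization and 20 with the equal share of reads, and 0 to 30 on leaving out 1 IP. Lower glycolysis and hypoxia genes numbered 4, 4 and 3 at a mean RPKM of 5, with quantile normalization and with the equal share of reads, and 0 to 4 on leaving out 1 IP. Higher redox genes numbered 2 at a mean RPKM of 5 and 0 to 3 on leaving out 1 IP, lower naive-state genes 2 and 0 to 5, and higher BMP and Id genes 1 and 0 to 3. The median of chromosome 8 was 0.041 to 0.36 on leaving out an F266A IP, also chosen after seeing the data. Depth limits Mir18, Mir18b, Mir294 and Snord1a, which rest on at most an estimated 7.65 reads in any IP. No reads were estimated for Mir28b, another row of a short hairpin.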
